A study of Equus caballus with 6 samples.

Results

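The genes described here encode the factors that carry mRNA through translation and the enzymes that load amino acids onto tRNA, measured in the inner cell mass (ICM) and trophectoderm (TE) of day 8 horse blastocysts. They are the 91 of 12270 genes in the deposited table whose symbols mark them as initiation factors (EIF), elongation factors (EEF), aminoacyl-tRNA synthetases, the synthetase scaffold proteins AIMP1 and AIMP2, or asparagine synthetase (ASNS). The kinases that phosphorylate eIF2 share the EIF2 prefix and were left out of this set. The symbol rule used no measured value. It also takes in EIF2C1 and EIF2C3, older names of Argonaute proteins, which act in small RNA silencing and are not initiation factors.

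The 3 ICM libraries (labelled 15, 22 and 25) and the 3 TE libraries (16, 23 and 24) came from in vivo embryos of superovulated mares. Both tissues went through Pronase, a protease mix. ICM was then cleaned by immunosurgery, which lyses the outer cells with antibody and complement, while TE was cut away mechanically, so tissue and isolation method cannot be told apart. The labels name neither breed, age nor mare and do not pair ICM with TE libraries by embryo, and p-values therefore speak of the spread among these 6 libraries.

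Each library had 6526212 to 10686659 reads in the table's genes. RPKM is a read count divided by gene length and by a factor for library depth, so that levels of different genes can be compared. The factor worked back from the deposited values did not follow the reads in the table. It was 0.97 for ICM 25 with 6622207 reads and 0.77 for TE 23 with 6526212 reads. All 8 trophectoderm markers were in the table. Their summed level was 25.6 to 55.7 RPKM in ICM libraries and 126 to 159 RPKM in TE libraries. In all but TFAP2C every ICM library was below every TE library. TFAP2C was at 11.2, 16.1 and 3.86 RPKM in ICM 15, 22 and 25, against 9.24 to 10.8 RPKM in TE libraries. KRT7 in ICM 25 (8.08 RPKM) came close to TE libraries (8.53 to 8.67 RPKM). The 7 epiblast markers in the table summed to 66.9, 52.3 and 26.6 RPKM in ICM 15, 22 and 25, against 13.1 to 20.1 RPKM in TE libraries, where SOX2 had 0 reads. The 7 hypoblast markers summed to 70.6, 74.5 and 33.0 RPKM in ICM 15, 22 and 25, against 17.8 to 29.2 RPKM in TE libraries. ICM 25 therefore had lower summed RPKM of both inner lineages than the other ICM libraries, though not in every marker. BMP2 (6.12 RPKM) and APOA1 (8.27 RPKM) were higher in ICM 25 than in ICM 15 and 22, and KLF4, GDF3 and SERPINH1 lay between them. The other markers of these lineages were lowest in ICM 25 among ICM libraries. GATA4 (2.33 RPKM) and GATA6 (6.19 RPKM) there lay below every TE library. Of the blood and immune markers, 3 symbols were in the table and summed to 1.53 to 6.26 RPKM in ICM libraries and 0.85 to 1.33 RPKM in TE libraries, and the 4 endometrial markers in the table to 6.97 to 8.52 RPKM in ICM libraries and 6.19 to 7.21 RPKM in TE libraries. Within these sums, mean CD3E (0.083 RPKM in ICM libraries against 0.47 in TE libraries) and PGR (0.67 and 2.05) were higher in TE. The other rows in these sums had higher means in ICM. The part of other cells in the results below was not tested. In such tissue pieces, fewer cells of a type and less RNA per cell cannot be told apart.

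In translation initiation, eIF2 brings the initiator tRNA to the small ribosomal subunit, the eIF4 group recruits the capped mRNA and eIF3 holds the assembly together. The exchange factor eIF2B reloads eIF2 with GTP. When stress kinases phosphorylate the alpha subunit of eIF2, eIF2B is blocked, general initiation drops and the transcription factor ATF4 is made, whose known targets include ASNS and many cytosolic synthetases. In the blastocyst, translation supports the growth that goes with expansion, and several amino acids are taken up from the uterine fluid.

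As a set, the members were abundant and close between the tissues. The median member tested had a mean of 27.1 RPKM over the 6 libraries, against 6.04 RPKM for all genes tested. Of the 91 members, 87 reached at least 1 RPKM in at least 3 libraries and were tested with limma on log2(RPKM + 1), fitted and adjusted (Benjamini-Hochberg) over all 9436 genes that passed. By that test 0 members were called at an adjusted p of 0.05, where 1.87% of all genes tested were. At an unadjusted p under 0.05 there was 1 member, EIF2B1, where 16.9% of all genes tested passed. The limma-voom fit on recovered reads likewise called 0 members, where it called 1.32% of all genes, and had 1 at an unadjusted p under 0.05, where 16.4% of all genes were. No tested member differed by more than 1 log2 unit, while 6.72% of all genes tested did. The members' log2 differences (ICM minus TE) ran from -0.92 for MARS2 to 0.57 for ASNS, with a median absolute value of 0.23 against 0.31 for all genes tested. Members lie higher in abundance than most genes, and the part of that in the narrow spread was not tested.

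**Figure D1:**
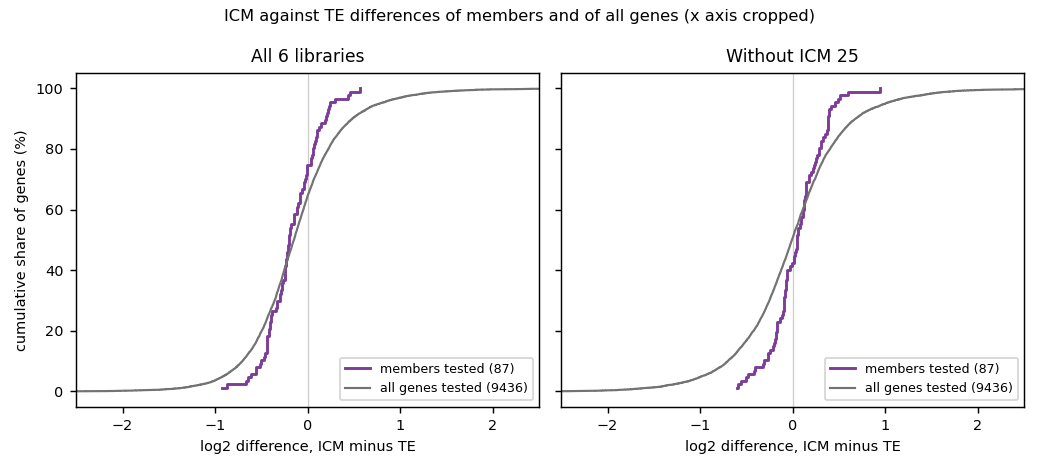
Cumulative share (%) of genes by log2 difference, ICM minus TE, for the 87 members tested (purple) and all 9436 genes tested (grey), with all 6 libraries at left and without ICM 25 at right. In both panels the members' curve is steeper than that of all genes, and its middle moves from -0.20 with all libraries to 0.045 without ICM 25.

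The direction of the members hung on library ICM 25. With all libraries, 22 members had a higher mean log2 level in ICM and 65 a lower one, with a median log2 difference of -0.20 beside -0.15 for all genes tested. Without ICM 25 the split was 50 higher and 37 lower, with a median of 0.045 beside -0.010. Rescaling by the median of ratios moved the median of all genes to -0.033 and that of the members to -0.067, with 36 members higher and 51 lower. No direction of the set as a whole is therefore given. Each single log2 difference below can be read against the -0.15 of all genes. That median depends on the setting, and was -0.20 at a minimum of 5 RPKM, at pseudocount 0.1 and by voom.

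ICM 25 was the lowest of the 6 libraries for 66 of the 87 members tested (75.9%), where it was the lowest for 50.9% of all genes tested. The median member stood in ICM 25 at 0.58 times its mean in ICM 15 and 22, against 0.68 times for all genes tested. RPKM in ICM 25 were thus low across the table, with a median of ratios factor of 0.77 against 1.02 to 1.14 in the other libraries. The part of this shift in the members' lower RPKM was not tested. The summed RPKM of the 91 members were 5162, 5913 and 3592 in ICM 15, 22 and 25, against 4894, 4893 and 5852 in TE 16, 23 and 24. As a share of the reads in the table they took 2.92%, 2.85% and 2.34% in ICM 15, 22 and 25, against 2.65%, 2.69% and 2.71% in TE 16, 23 and 24. So ICM 25 lay below the other 5 libraries on both measures, while ICM 15 and 22 overlapped TE in summed RPKM.

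The drop in ICM 25 was uneven among members. MARS2, the mitochondrial methionyl synthetase, stood there at 0.16 times its mean in ICM 15 and 22. EIF6, which keeps the large ribosomal subunit from joining too early, stood at 0.21 times, and EIF3J, a loosely bound eIF3 subunit, at 0.24 times. The lysyl synthetase KARS (0.97 times) and the eIF3 subunit EIF3H (0.94 times) hardly moved. In ICM 25, 4 of the 87 members tested lay above both other ICM libraries, where 1839 of the 9436 genes tested did. These members were led by TARS2, the mitochondrial threonyl synthetase, at 3.20 times, and EIF5A2 at 1.70 times.

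**Figure D2:**
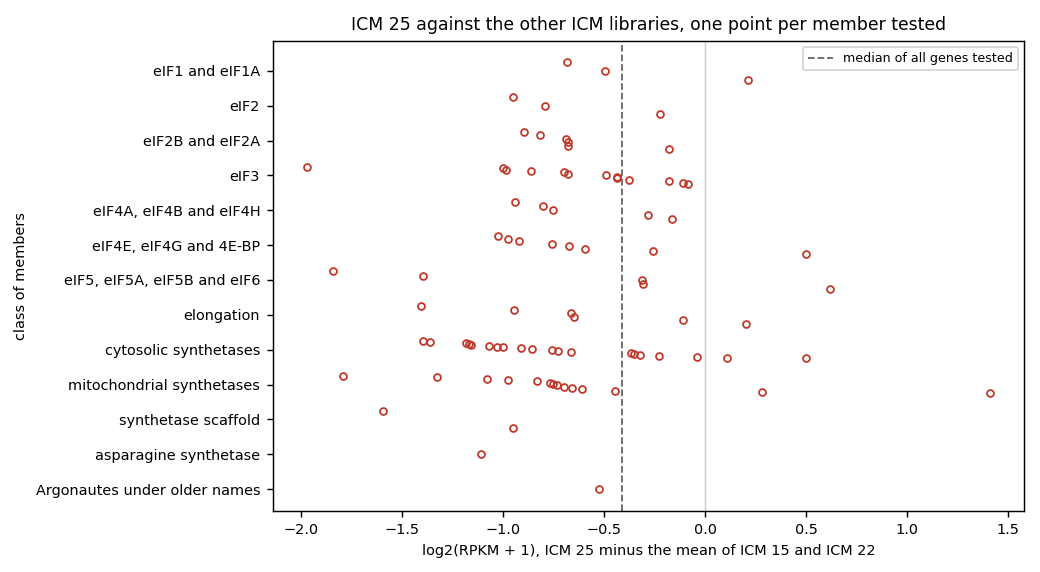
Each point is a member tested, placed by its log2(RPKM + 1) in ICM 25 minus the mean of ICM 15 and ICM 22, in rows by class; the dashed line is the median of all genes tested. Most points lie left of the line at -0.41, with EIF3J, EIF6, MARS2 and AIMP2 farthest left and TARS2 farthest right.

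Start site selection is the work of eIF1, with eIF1A. EIF1 stood at 39.4, 75.5 and 63.3 RPKM in ICM 15, 22 and 25, against 32.9, 43.5 and 49.7 RPKM in TE 16, 23 and 24 (log2 difference 0.46, SE 0.30, limma adjusted p = 0.49). The ICM mean was higher, but ICM 15 lay among the TE libraries. Its close relative EIF1B was at 15.7 ± 4.05 RPKM in ICM libraries against 13.8 ± 4.96 in TE libraries (each a mean ± SD over n = 3, as in all values written so). EIF1AD, a protein with an eIF1A-like domain, was at 9.98 ± 2.82 RPKM in ICM libraries against 12.5 ± 1.34 in TE libraries.

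Of eIF2 itself, the alpha subunit EIF2S1 was at 69.9 ± 21.0 RPKM in ICM libraries against 73.7 ± 4.90 in TE libraries. The beta subunit EIF2S2 was the most abundant of its group, at 125, 111 and 60.4 RPKM in ICM 15, 22 and 25, against 115, 109 and 161 RPKM in TE 16, 23 and 24. ICM 25 was low and TE 24 high, and the other 4 libraries lay within 109 to 125 RPKM. EIF2D, a factor of alternative initiation and ribosome recycling, was low, at 2.99, 4.53 and 3.01 RPKM in ICM 15, 22 and 25, against 4.84, 5.47 and 6.43 RPKM in TE 16, 23 and 24. The groups of EIF2D did not overlap, with ICM below, and the difference missed the threshold (log2 difference -0.56, SE 0.25, limma adjusted p = 0.31). Its row lies wholly within the deposited coordinates of DYRK3, a kinase gene, and strand was not stated, so reads of the 2 genes may not be separable.

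The exchange factor eIF2B held the member with the smallest p. EIF2B1, its regulatory alpha subunit, is listed at chromosome 8, 23494778 to 23502184, in a genome build the table does not name. It was at 30.2, 47.5 and 21.1 RPKM in ICM 15, 22 and 25, against 49.0, 56.7 and 69.3 RPKM in TE 16, 23 and 24. Every ICM library was below every TE library, and ICM 22 came close to TE 16. On the log2(RPKM + 1) scale the difference was -0.87 (SE 0.32, unadjusted p = 0.024, limma adjusted p = 0.21), or -0.72 relative to the median of all genes. Over the alternatives tried, its adjusted p ran from 0.10 to 0.58 and its log2 difference from -1.16 to -0.58. The authors' deposited table, made with DESeq, calls EIF2B1 lower in ICM, with a fold of 0.56 and an adjusted p of 0.020.

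The other eIF2B subunits were far lower in level and closer between the tissues. The beta subunit EIF2B2 was at 8.82, 14.9 and 6.80 RPKM in ICM 15, 22 and 25, against 17.0, 13.6 and 16.6 RPKM in TE 16, 23 and 24 (limma adjusted p = 0.33). ICM 22 lay among the TE libraries. The catalytic epsilon subunit EIF2B5 was at 7.83 ± 0.63 RPKM in ICM libraries against 8.84 ± 0.87 in TE libraries, EIF2B3 at 6.96 ± 2.07 and 8.73 ± 2.03, and EIF2B4 at 16.8 ± 8.43 and 16.7 ± 2.95. Divided by the mean of these 4 subunits within each library, EIF2B1 was 3.10, 3.28 and 2.96 in ICM 15, 22 and 25, against 4.21, 4.91 and 4.85 in TE 16, 23 and 24. In this ratio ICM 25 lay beside the other ICM libraries. The ratio was chosen after values were seen and is given with no test. EIF2A, an alternative carrier of initiator tRNA that is distinct from eIF2, was at 50.9 ± 16.4 RPKM in ICM libraries against 57.1 ± 3.58 in TE libraries.

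**Figure D3:**
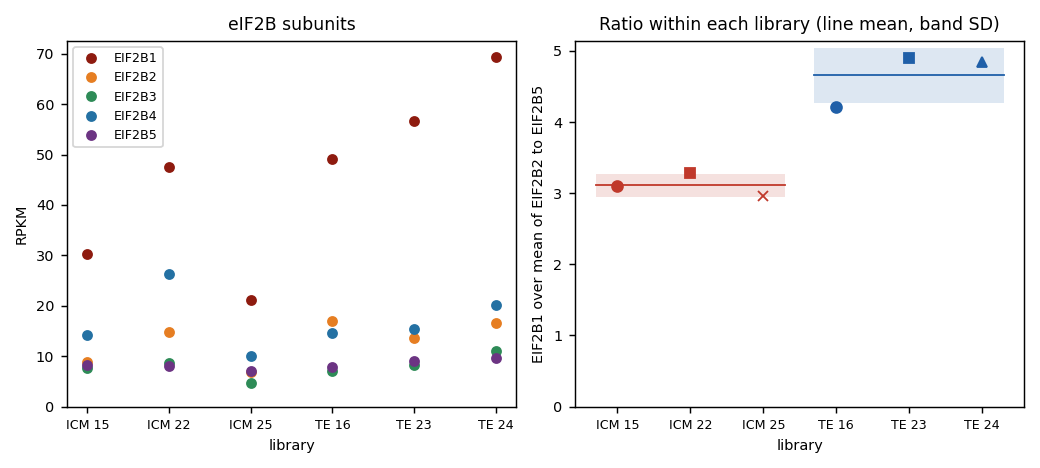
Left, RPKM of the 5 eIF2B subunits in each library; right, EIF2B1 over the mean of the other subunits in the same library, with the mean of 3 libraries as a line and the SD as a band. The ratio is 2.96 to 3.28 in ICM libraries, ICM 25 included, and 4.21 to 4.91 in TE libraries.

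All 13 eIF3 subunits, EIF3A to EIF3M, passed the filter, at mean levels between 18.6 RPKM (EIF3B, a core scaffold subunit) and 179 RPKM (EIF3M). EIF3M was at 182, 206 and 119 RPKM in ICM 15, 22 and 25, against 179, 172 and 217 RPKM in TE 16, 23 and 24. EIF3L had the smallest p of the group, at 80.9 ± 20.6 RPKM in ICM libraries against 97.2 ± 7.99 in TE libraries (a log2 difference of -0.29, SE 0.26, limma adjusted p = 0.63). The group's log2 differences stayed between -0.29 and 0.20. EIF3H was the only member tested whose ICM libraries all lay above TE, at 191, 183 and 176 RPKM in ICM 15, 22 and 25, against 154, 158 and 167 RPKM in TE 16, 23 and 24. The gap was small beside the error of the fit (log2 difference 0.20, SE 0.22, adjusted p = 0.70).

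In all, the ICM and TE values of 9 members tested did not overlap, where those of 24.6% of all genes tested did not. EIF3H was above, where 6.81% of all genes were. The 8 below, where 17.8% of all genes were, included EIF2B1, EIF2D and MARS2, the eEF2 kinase EEF2K and the synthetases DARS, EPRS, QARS and TARS. EIF3J was the eIF3 subunit with the widest spread, at 36.9, 39.2 and 8.95 RPKM in ICM 15, 22 and 25, against 36.5, 18.5 and 22.7 RPKM in TE 16, 23 and 24. Its ICM libraries lay on both sides of TE.

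Among the helicase group, EIF4A1, which unwinds the mRNA leader, was at 355, 355 and 203 RPKM in ICM 15, 22 and 25, against 344, 356 and 428 RPKM in TE 16, 23 and 24. Its paralog EIF4A2 was at 110 ± 12.5 RPKM in ICM libraries against 111 ± 18.6 in TE libraries. The quotient of the 2 paralogs was 2.96, 3.11 and 2.11 in ICM 15, 22 and 25, against 3.39, 3.59 and 3.23 in TE 16, 23 and 24, with every ICM library below TE. ICM 22 came close to TE 24, ICM 25 lay farthest from TE, and the quotient is given with no test. EIF4A3, a helicase of the exon junction complex rather than of initiation, was at 57.3, 75.7 and 38.7 RPKM in ICM 15, 22 and 25, against 73.6, 72.2 and 94.2 RPKM in TE 16, 23 and 24 (log2 difference -0.52, SE 0.29, limma adjusted p = 0.41). ICM 22 lay among the TE libraries. The helper protein EIF4B (167 ± 11.5 RPKM in ICM libraries against 146 ± 9.73 in TE libraries) was among the least variable members, and EIF4H stood at 9.79 ± 4.49 in ICM libraries against 8.49 ± 0.36 in TE libraries.

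**Figure D4:**
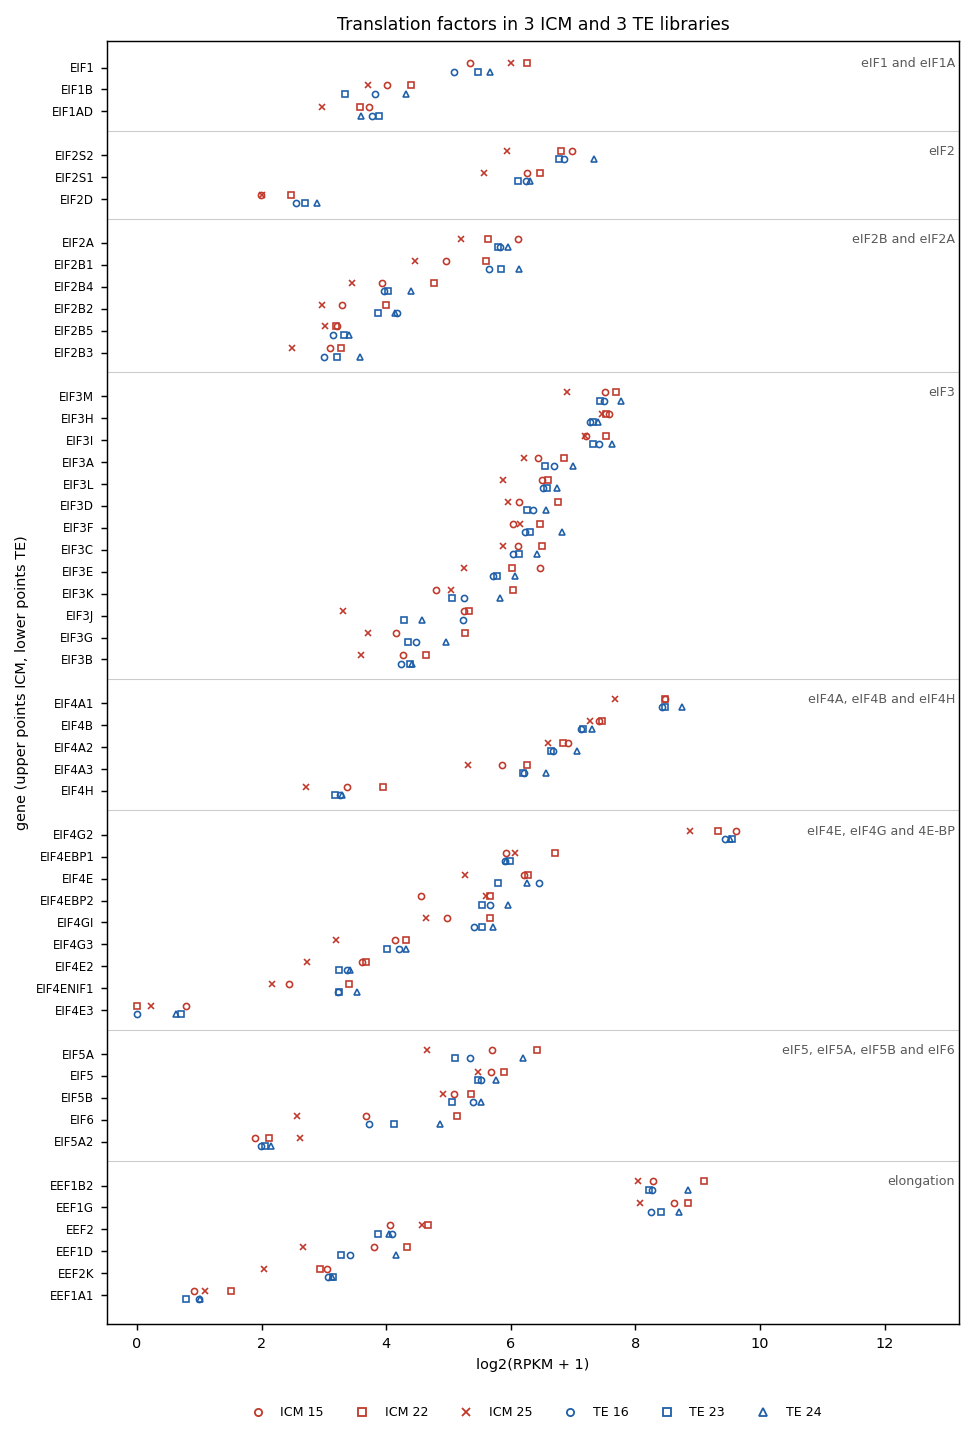
Level of each initiation and elongation factor in log2(RPKM + 1), with ICM libraries as red points (ICM 25 as a cross) above the TE libraries in blue, grouped by class and ordered by mean level. Levels run from EIF4E3, near 0, to EIF4G2, at 467 to 781 RPKM, and ICM 25 is the lowest point in most rows.

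The most abundant member was EIF4G2, a shorter eIF4G relative that does not bind the cap protein, at 781, 639 and 467 RPKM in ICM 15, 22 and 25, against 694, 749 and 729 RPKM in TE 16, 23 and 24. The canonical scaffold, listed under the symbol EIF4GI, was at 34.6 ± 13.4 RPKM in ICM libraries against 46.3 ± 4.98 in TE libraries, and EIF4G3 at 14.6 ± 5.63 and 17.2 ± 1.86. EIF4G2 thus stood at 12.9 to 25.8 times EIF4GI in ICM libraries and 14.1 to 16.6 times in TE libraries. The cap protein EIF4E was at 73.1, 76.8 and 37.6 RPKM in ICM 15, 22 and 25, against 86.4, 54.7 and 75.5 RPKM in TE 16, 23 and 24. EIF4E2, a cap-binding repressor, was at 9.54 ± 3.43 RPKM in ICM libraries against 9.16 ± 0.65 in TE libraries. EIF4E3 was nearly silent, with 9, 0 and 2 reads in ICM 15, 22 and 25, against 0, 6 and 7 reads in TE 16, 23 and 24, and was not tested.

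EIF4EBP1 and EIF4EBP2 encode repressors that hold EIF4E until the growth kinase mTORC1 phosphorylates them. EIF4EBP1 was at 59.9, 104 and 66.0 RPKM in ICM 15, 22 and 25, against 59.2, 62.7 and 59.7 RPKM in TE 16, 23 and 24. EIF4EBP2 was at 22.5, 49.8 and 47.8 RPKM in ICM 15, 22 and 25, against 49.6, 45.3 and 61.2 RPKM in TE 16, 23 and 24. Neither was called (limma adjusted p = 0.63 and 0.55), and in each a different ICM library stood apart, ICM 22 in EIF4EBP1 and ICM 15 in EIF4EBP2. Their quotient, EIF4EBP1 over EIF4EBP2, was 2.66, 2.09 and 1.38 in ICM 15, 22 and 25, against 1.19, 1.39 and 0.98 in TE 16, 23 and 24. ICM 25 lay level with TE 23. EIF4ENIF1, which carries EIF4E into the nucleus and into P-bodies, was at 5.83 ± 3.27 RPKM in ICM libraries against 9.16 ± 1.26 in TE libraries (a log2 difference of -0.67, SE 0.34, adjusted p = 0.36).

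Of the late factors, EIF5, which triggers GTP hydrolysis on eIF2, was at 50.8 ± 7.41 RPKM in ICM libraries against 47.3 ± 5.47 in TE libraries, and EIF5B, which joins the large subunit, at 34.1 ± 5.57 and 39.4 ± 6.64. EIF5A, the hypusine-bearing factor that helps the ribosome through difficult peptide bonds, was at 50.8, 85.0 and 24.3 RPKM in ICM 15, 22 and 25, against 39.8, 33.6 and 72.3 RPKM in TE 16, 23 and 24. The groups of EIF5A overlapped fully, and the sign of its log2 difference (0.04, SE 0.46) changed with single libraries left out. EIF5A2 was far lower, at 3.74 ± 1.27 RPKM in ICM libraries against 3.19 ± 0.23 in TE libraries. EIF6 varied most, at 11.8, 34.1 and 4.92 RPKM in ICM 15, 22 and 25, against 12.2, 16.5 and 28.1 RPKM in TE 16, 23 and 24.

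Among elongation factors, EEF1B2 and EEF1G, subunits of the complex that reloads eEF1A, were abundant, while EEF1D was lower, at a mean of 12.1 RPKM. EEF1B2 was at 312, 550.1 and 264 RPKM in ICM 15, 22 and 25, against 306, 297 and 459 RPKM in TE 16, 23 and 24, and EEF1G at 373 ± 97.98 RPKM in ICM libraries against 353 ± 55.9 in TE libraries. Their ranges overlapped. EEF2, which moves the ribosome along the mRNA, was at 15.8, 24.4 and 22.8 RPKM in ICM 15, 22 and 25, against 16.0, 13.6 and 15.6 RPKM in TE 16, 23 and 24. ICM 22 and 25 lay above TE and ICM 15 among it (log2 difference 0.43, SE 0.25, limma adjusted p = 0.43). The kinase that inhibits it, EEF2K, was at 7.31, 6.67 and 3.13 RPKM in ICM 15, 22 and 25, against 7.40, 7.86 and 7.78 RPKM in TE 16, 23 and 24 (adjusted p = 0.52). The groups of EEF2K did not overlap, though ICM 15 nearly touched TE 16.

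EEF1A1, which delivers loaded tRNA and is elsewhere among the most abundant mRNAs of a cell, had 24 to 94 reads per library, or 1.29 ± 0.50 RPKM in ICM libraries against 0.91 ± 0.16 in TE libraries. Its row covers 2510 bases of an unplaced scaffold. The gene has many near-identical copies, and how reads with several matches were counted is not given in the sources used here, so this row cannot be taken as the level of EEF1A1. EEF1D, a further exchange subunit, was at 12.5 ± 6.90 RPKM in ICM libraries against 11.7 ± 4.44 in TE libraries.

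All 20 cytosolic synthetases passed the filter and 0 were called, with log2 differences between -0.55 and 0.088. The most abundant were FARSB, the beta subunit of the phenylalanyl enzyme, NARS (asparaginyl), EPRS, which joins the glutamyl and prolyl enzymes in a single protein, and IARS (isoleucyl). FARSB was at 102, 104 and 39.4 RPKM in ICM 15, 22 and 25, against 107, 94.7 and 105 RPKM in TE 16, 23 and 24. ICM 25 alone stood apart. FARSA, its partner subunit, was listed at 3.34 ± 3.32 RPKM in ICM libraries against 3.88 ± 1.24 in TE libraries, far below FARSB in every library. EPRS was at 71.6, 70.9 and 60.7 RPKM in ICM 15, 22 and 25, against 80.6, 79.2 and 81.6 RPKM in TE 16, 23 and 24. The ICM libraries of EPRS were all below TE, by less than the error of the fit allowed to call (log2 difference -0.25, SE 0.22, limma adjusted p = 0.62).

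The cytosolic synthetases with the smallest p were YARS (tyrosyl), IARS and TARS (threonyl). YARS was at 12.5, 18.96 and 8.04 RPKM in ICM 15, 22 and 25, against 14.4, 20.02 and 22.8 RPKM in TE 16, 23 and 24 (log2 difference -0.55, SE 0.33, limma adjusted p = 0.44). IARS was at 62.7 ± 18.4 RPKM in ICM libraries against 84.3 ± 9.01 in TE libraries (a log2 difference of -0.46, adjusted p = 0.45). Both overlapped between the tissues. TARS was at 36.8, 40.4 and 22.4 RPKM in ICM 15, 22 and 25, against 42.3, 44.0 and 45.7 RPKM in TE 16, 23 and 24, with no overlap (adjusted p = 0.46). QARS, the glutaminyl enzyme, kept the same order without a drop in ICM 25, at 32.8, 35.0 and 36.6 RPKM in ICM 15, 22 and 25, against 39.2, 44.4 and 43.4 RPKM in TE 16, 23 and 24 (adjusted p = 0.57). Without ICM 25, GARS (glycyl), HARS (histidyl) and NARS lay above all TE libraries, 3 of the 20, where 21.6% of all genes tested did, and 4 lay below, where 22.8% of all genes did. None of them was called.

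**Figure D5:**
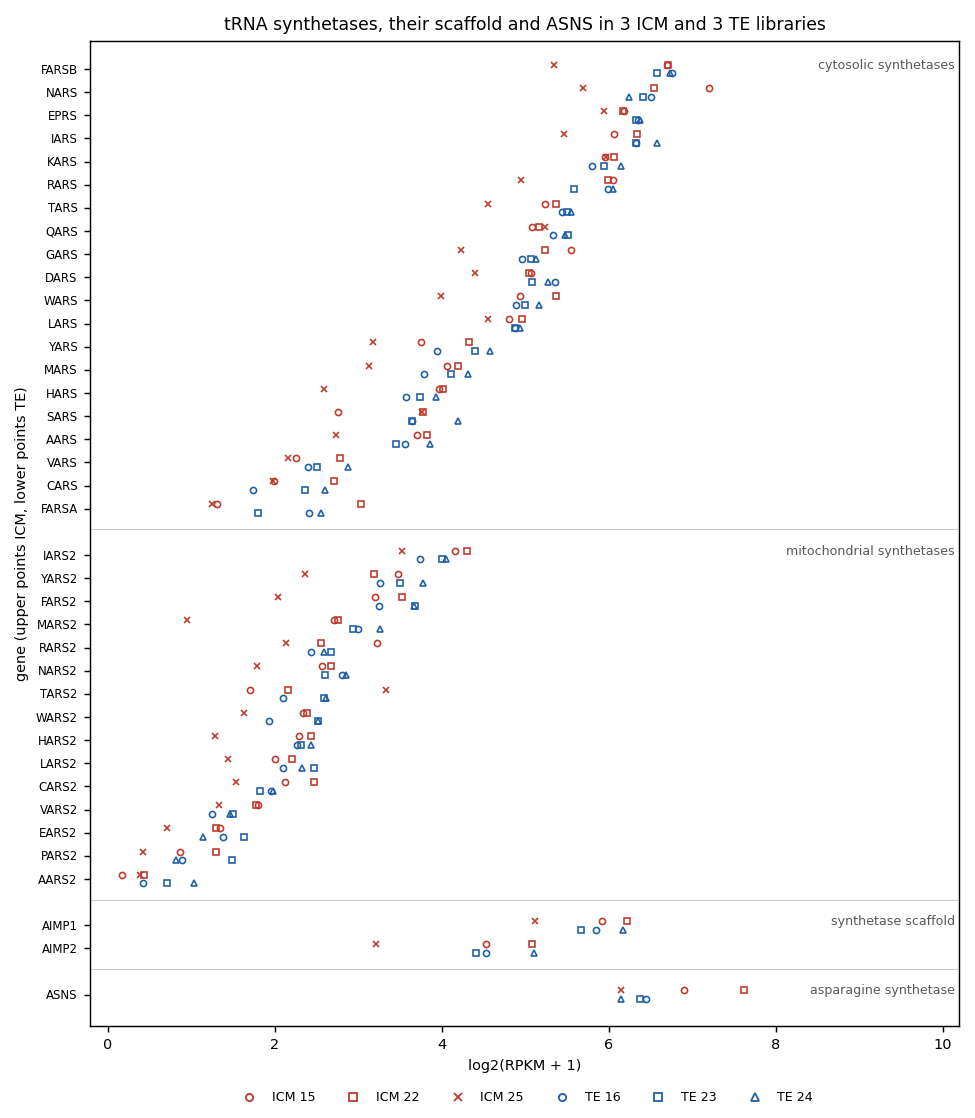
Level of the tRNA synthetases (1 mitochondrial enzyme not drawn), AIMP1, AIMP2 and ASNS in log2(RPKM + 1), with ICM libraries in red (ICM 25 as a cross) above the TE libraries in blue. Cytosolic synthetases have a median mean level of 31.2 RPKM and mitochondrial ones tested 4.23 RPKM. ICM 15 and 22 lie to the right of every TE library in ASNS, GARS, HARS, NARS, IARS2, CARS2 and VARS2. They lie to the left of every TE library in DARS, EPRS, QARS, TARS and MARS2. Of all genes tested, 21.6% lay to the right in this way and 22.8% to the left.

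The mitochondrial synthetases counted here are nuclear genes with rows of their own, and they serve the translation of the mitochondrial genome. Of 16, 14 passed the filter, at mean levels between 1.42 RPKM (EARS2, glutamyl) and 14.8 RPKM (IARS2, isoleucyl). Summed cytosolic over summed mitochondrial levels came to 10.1, 9.75 and 10.1 in ICM 15, 22 and 25, against 10.99, 8.90 and 9.40 in TE 16, 23 and 24. This quotient was close in all 6 libraries, ICM 25 included. It counts KARS and GARS as cytosolic only, and any mitochondrial product of these genes is not separated. Among 13 amino acids with a pair of genes named alike in the table, the cytosolic gene had the higher mean in each, from 1.27 times for CARS over CARS2 (cysteinyl) to 23.4 times for AARS over AARS2 (alanyl). EPRS and the phenylalanyl genes were left out of these pairs. Of the latter, cytosolic FARSB (mean 92.1 RPKM) lay above mitochondrial FARS2 (8.95 RPKM) and cytosolic FARSA (3.61 RPKM) below it. IARS2 was at 15.4 ± 4.28 RPKM in ICM libraries against 14.3 ± 1.75 in TE libraries.

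MARS2 had the smallest p of its class. It was at 5.55, 5.76 and 0.92 RPKM in ICM 15, 22 and 25, against 6.96, 6.62 and 8.55 RPKM in TE 16, 23 and 24. All ICM libraries were below TE, and the size of the difference rested on ICM 25 (log2 difference -0.92, SE 0.46, limma adjusted p = 0.36, and -0.33 without ICM 25). Its deposited span of 183817 bases shares 160854 bases with the row of BOLL, so the reads of the 2 genes may not be separable. AARS2 (0.26 ± 0.12 RPKM in ICM libraries against 0.67 ± 0.35 in TE libraries) and PARS2, the prolyl enzyme (0.87 ± 0.56 and 1.13 ± 0.57), were below the filter.

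AIMP1 and AIMP2, which tie several cytosolic synthetases into a complex, spread widely within each tissue. AIMP1 was at 59.6, 73.1 and 33.6 RPKM in ICM 15, 22 and 25, against 56.6, 49.7 and 71.1 RPKM in TE 16, 23 and 24. AIMP2 was at 22.0, 32.9 and 8.24 RPKM in ICM 15, 22 and 25, against 22.0, 20.2 and 33.3 RPKM in TE 16, 23 and 24. In both genes ICM 22 and TE 24 were the highest and ICM 25 the lowest (limma adjusted p = 0.86 and 0.71). The Argonaute row EIF2C3 was at 5.12 ± 1.27 RPKM in ICM libraries against 5.43 ± 0.92 in TE libraries. EIF2C1, below the filter, was at 0.66 ± 0.52 RPKM in ICM libraries against 0.31 ± 0.10 in TE libraries. Rows under the newer symbols AGO1 and AGO3 were also tested (log2 differences 0.026 and 0.15), beside -0.083 for EIF2C3.

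ASNS makes asparagine from aspartate and glutamine and is a known target of ATF4. The row lies at chromosome 4, 40798522 to 40817305, in the table's unnamed build. It was at 118, 195 and 69.8 RPKM in ICM 15, 22 and 25, against 86.3, 81.6 and 69.6 RPKM in TE 16, 23 and 24. ICM 15 and 22 lay above every TE library, and ICM 25 was level with TE 24. With all libraries it was not called (log2 difference 0.57, SE 0.36, limma adjusted p = 0.47). Without ICM 25 it was the only member called, where 11.5% of all genes tested were called and 5.89% were called higher in ICM (log2 difference 0.94, limma adjusted p = 0.043), and over all alternatives its adjusted p ran from 0.043 to 0.79. In the authors' deposited table ASNS is called higher in ICM, with a fold of 1.62 and an adjusted p of 0.021. That table calls 2 of the 91 members, ASNS and EIF2B1, and 16.6% of all its genes, 10.7% higher in ICM and 5.96% lower.

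NARS, which loads asparagine onto its tRNA, was at 146, 92.5 and 50.5 RPKM in ICM 15, 22 and 25, against 90.0, 84.3 and 74.7 RPKM in TE 16, 23 and 24. ASNS over NARS was 0.81, 2.11 and 1.38 in ICM 15, 22 and 25, against 0.96, 0.97 and 0.93 in TE 16, 23 and 24. The TE libraries were nearly identical in this quotient, and the ICM libraries lay on both sides of them.

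Other genes of the amino acid response were read from a list of 33 symbols outside the set, of which 28 were in the table and 22 were tested. By limma the list held 1 gene called higher in ICM and 0 called lower, where 1.87% of all genes tested were called, with 6 at an unadjusted p under 0.05, where 16.9% of all genes were. Its median log2 difference was 0.11 against -0.15 for all genes tested. The authors' deposited table calls 8 of its 28 genes, and 16.6% of all genes. The limma call was SLC38A2, a carrier of small neutral amino acids, at 76.9, 54.2 and 122 RPKM in ICM 15, 22 and 25, against 9.24, 13.6 and 14.4 RPKM in TE 16, 23 and 24 (log2 difference 2.62, SE 0.33, limma adjusted p = 0.014). The groups were far apart, and ICM 25 was the highest library. The call missed the threshold without ICM 15 (adjusted p = 0.055), TE 16 (0.12), TE 23 (0.080) or TE 24 (0.11), while the log2 difference stayed between 2.31 and 2.89.

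CHAC1, an enzyme that breaks down glutathione and is also induced by ATF4, lay the other way, at 0.48, 1.21 and 0.92 RPKM in ICM 15, 22 and 25, against 2.36, 3.71 and 6.44 RPKM in TE 16, 23 and 24 (log2 difference -1.41, SE 0.33, limma adjusted p = 0.074). Its groups did not overlap, and it was called without ICM 25 (adjusted p = 0.040). ATF4 itself was low and uneven, at 1.04, 5.68 and 0.61 RPKM in ICM 15, 22 and 25, against 0.82, 0.91 and 2.49 RPKM in TE 16, 23 and 24. PSAT1, an enzyme of serine synthesis named here after its values were seen, was at 129, 129 and 15.9 RPKM in ICM 15, 22 and 25, against 66.4, 58.6 and 67.8 RPKM in TE 16, 23 and 24. As in ASNS, ICM 15 and 22 lay above every TE library, but ICM 25 lay far below TE. PSAT1 was not called with all libraries (limma adjusted p = 0.99) and was called higher in ICM without ICM 25 (log2 difference 0.999, adjusted p = 0.012). Without ICM 25, 3 of the 22 tested genes of the list were called, where 11.5% of all genes tested were. Genes of this list thus lay on both sides.

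Upstream of eIF2B, 0 of 9 tested genes of the eIF2 kinases and phosphatase were called in either direction. Their median log2 difference was -0.14, and 1 had an unadjusted p under 0.05, where 16.9% of all genes tested did. That gene was DNAJC3, an inhibitor of eIF2 kinases, at 7.64, 8.36 and 12.7 RPKM in ICM 15, 22 and 25, against 16.2, 14.2 and 15.9 RPKM in TE 16, 23 and 24 (log2 difference -0.67, SE 0.26, limma adjusted p = 0.23). It was called lower in ICM without ICM 25 (limma adjusted p = 0.020), where 11.5% of all genes tested were called. The amino acid sensor kinase EIF2AK4 was at 3.56, 4.97 and 9.13 RPKM in ICM 15, 22 and 25, against 5.46, 6.27 and 6.77 RPKM in TE 16, 23 and 24. The kinase of the endoplasmic reticulum, EIF2AK3, was at 4.57, 3.66 and 9.32 RPKM in ICM 15, 22 and 25, against 7.66, 7.67 and 5.77 RPKM in TE 16, 23 and 24. In both kinases ICM 25 was the highest library, and ICM 15 and 22 were the lowest. GCN1L1, a partner of EIF2AK4, was at 13.5 ± 4.66 RPKM in ICM libraries against 17.9 ± 1.07 in TE libraries.

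In the remaining lists of the pathway limma called 0 genes in either direction with all libraries. Over all lists but that of the amino acid response, limma-voom also called 0, where it called 1.32% of all genes tested. The authors' deposited table calls 5 genes of these lists, where it calls 16.6% of all its genes. Mitochondrial translation factors had the lowest median log2 difference, -0.50 over 14 genes, of which 2 had a higher mean log2 level in ICM. Every ICM library was below TE in 8 of them, where that held for 17.8% of all genes tested, and 4 had an unadjusted p under 0.05, where 16.9% of all genes did. The smallest p values were those of MTRF1, a release factor family member (2.81 ± 0.57 RPKM in ICM libraries against 5.44 ± 1.16 in TE libraries, limma adjusted p = 0.18), and MTIF3, an initiation factor (8.96 ± 3.92 and 17.5 ± 1.15, adjusted p = 0.19). The median of this list was -0.36 without ICM 25, beside -0.010 for all genes tested. Genes of tRNA processing and export had a median of -0.38 over 37 genes, and -0.080 without ICM 25. Of these, 10 had every ICM library below TE and 8 an unadjusted p under 0.05, beside the same 17.8% and 16.9% of all genes. DTD1, which removes wrongly attached D-amino acids from tRNA, was at 14.5 ± 2.75 RPKM in ICM libraries against 24.2 ± 1.16 in TE libraries (adjusted p = 0.17), and TRMT5, a tRNA methyltransferase, at 11.4 ± 5.78 and 20.9 ± 1.49 (adjusted p = 0.21).

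The 11 genes of hypusine and diphthamide modification, which act on EIF5A and EEF2, had a median of -0.37. Of these, 1 had an unadjusted p under 0.05, where 16.9% of all genes tested did. The same share of all genes stands beside such counts in the lists that follow. SRM, the spermidine synthase, was at 109, 122 and 129 RPKM in ICM 15, 22 and 25, against 156, 168 and 218 RPKM in TE 16, 23 and 24 (log2 difference -0.58, SE 0.24, limma adjusted p = 0.27), with no overlap and no drop in ICM 25. DPH5 was at 6.004 ± 3.41 RPKM in ICM libraries against 10.9 ± 0.69 in TE libraries. In the mTORC1 list (17 tested, 1 with an unadjusted p under 0.05) the lysosomal anchor subunits LAMTOR4 (5.19 ± 2.48 RPKM in ICM libraries against 1.81 ± 1.29 in TE libraries) and LAMTOR1 (4.37 ± 0.69 and 6.96 ± 1.44) lay on opposite sides.

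Among helpers of the cap and poly(A) tail (22 tested, 2 with an unadjusted p under 0.05), PAIP2, which holds back the poly(A)-binding protein, was at 21.0 ± 1.49 RPKM in ICM libraries against 14.02 ± 1.83 in TE libraries (limma adjusted p = 0.26), and LARP4B at 17.0 ± 3.14 and 25.8 ± 1.86 (adjusted p = 0.26). In termination and recycling (8 rows tested, 1 with an unadjusted p under 0.05), the release factor GSPT1 was at 86.3 ± 21.6 RPKM in ICM libraries against 120 ± 7.74 in TE libraries, and the ribosome rescue factor PELO at 4.64 ± 0.90 and 7.88 ± 1.03. Of the 8 termination and recycling rows, 4 had every ICM library below TE, where 17.8% of all genes tested did. In 0 of them was every ICM library above TE, where that held for 6.81% of all genes tested. A list of synthetase-like and tRNA modification genes outside the set had 6 tested and 0 with an unadjusted p under 0.05. Its smallest p values were those of OSGEP (7.48 ± 2.34 RPKM in ICM libraries against 9.76 ± 0.80 in TE libraries) and YRDC (0.71 ± 0.40 and 1.09 ± 0.09), which act in tRNA modification.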

How the data were processed

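RNA-seq was made from 3 ICM and 3 TE pieces of day 8 horse blastocysts, with cDNA amplified before library construction, per the labels' protocols. The authors deposited 1 table of RPKM per gene and library. It also holds baseMean (a mean signal of normalized counts), a fold (ratio of ICM over TE) with its log2, and p-values from DESeq, all made by the authors per the file headers. The authors' residual variance score was not used. The authors used FastQC and DESeq, per the submitters' processing notes. The aligner, counter, build and annotation were not given in the sources used here. Symbols and spans are as deposited.

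RPKM and baseMean gave back whole reads (100% of values up to 1000 reads within 0.01 reads), used for depth, low rows and limma-voom. The labels name no molecular identifiers, so reads may not be independent molecules. Of the members, 69 had a current symbol in NCBI's gene list for the organism and 1 an older symbol there.

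A gene needed 1 RPKM or more in 3 or more libraries. The model was fitted to log2(RPKM + 1) in R 4.3.3 by limma 3.58.1 (eBayes with trend, two-sided, Benjamini-Hochberg over all genes, threshold 0.05). This scale understates differences of low genes. The fit was tested on simulated data. Members and lists were chosen with earlier results of these data known. Named were members with the smallest p (10, and the first of each class), the most abundant of each class, paralogs, members below the filter, and per further list the genes called and the 2 with the smallest p. Other genes were named after their values were seen. The result of 1 member is not reported here.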

Additional observations from a re-analysis of the deposited data

How the results depend on the processing

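Among all genes, calls numbered 176 as reported, 112 at pseudocount 0.1, 114 unfiltered, 81 at a minimum of 5 RPKM and 760 under library weights. They ran from 0 (without TE 16) to 1086 (without ICM 25) with a library left out; the cause was not tested. They numbered 209 with median of ratios rescaling, 206 with quantile normalization and 125 by voom. Members called higher in ICM ran from 0 to 1 (ASNS, without ICM 25), and members called lower stayed at 0 under all 13 alternatives. The members' median log2 difference (-0.20) ran from -0.37 (without ICM 22) to 0.045 (without ICM 25) and was 0.031 with library weights.

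Among named genes signs turned, with median of ratios rescaling EIF2C3 (0.037), EIF4A2 (0.14) and EIF4E2 (0.12); with quantile normalization EIF2C3 (0.040), AIMP1 (0.010), EIF4A2 (0.14) and EIF4E2 (0.14); with library weights EIF2C3 (0.057), EIF3M (0.023), AIMP2 (0.10), AIMP1 (0.16), EIF4A2 (0.10), EIF4E (0.026) and EIF4E2 (0.24). With a library left out the ranges were -0.37 to 0.51 for EIF5A, -0.21 to 0.093 for EIF2C3, -0.67 to 0.012 for FARSB, -0.44 to 0.017 for EIF2A, -0.36 to 0.038 for EIF3M, -0.27 to 0.26 for EEF1B2, -0.084 to 0.30 for IARS2, -0.81 to 0.13 for AIMP2, -0.38 to 0.17 for AIMP1, -0.080 to 0.13 for EIF4A2, -0.43 to 0.078 for EIF4E, -0.18 to 0.30 for EIF4E2, -0.51 to 0.045 for EIF4G3, -0.060 to 0.30 for EIF5A2 and -0.034 to 0.46 for EIF1B.

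No paired analysis was made, because the labels do not say which ICM and TE libraries, if any, came from the same embryo. Counting limits EIF4E3, AARS2, PARS2, EARS2 and EEF1A1, with under 100 reads in each library.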
